A study of Mus musculus with 9 samples.

Results

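The natriuretic peptide system was described here by 7 genes, taken by symbol from the gene column of the deposited comparison tables and joined by gene identifier to the deposited expression matrix. The genes are the peptides Nppa, Nppb and Nppc, the protease Corin, and the receptors Npr1, Npr2 and Npr3. Of these 7 genes, 6 were among the 14479 genes of the matrix, and Nppc was read from the comparison tables, which list 39171 genes each. RNA was sequenced from the lower ventricular apex of newborn CD-1 mice in 9 libraries, 3 per group. The first group had apical resection, the surgical removal of the ventricular tip, together with left vagotomy, the cutting of the left vagus nerve. The second group had apical resection alone, and the third had sham surgery. Surgery was on postnatal day 1 and the hearts were taken on postnatal day 2 in all 3 groups. The labels give neither the sex of the pups nor whether the libraries are of different pups, so p-values measure the spread between these libraries, which may be technical.

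Natriuretic peptides are hormones and local signals that are made as precursors and cut to their active form. Atrial natriuretic peptide (ANP) and B-type natriuretic peptide (BNP) come mainly from cardiomyocytes, are abundant in the fetal ventricle, decline there after birth, and are induced again in the stretched or injured ventricle. They act through receptors that make cyclic GMP, and a receptor without that enzyme activity clears them from the tissue.

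Nppa encodes the ANP precursor and lies at chr4:148000722-148002079 on the plus strand of GRCm38. Nppb encodes the BNP precursor and lies at chr4:147985788-147987205 on the same strand, 13517 bases before the start of Nppa. The 300-base windows around their transcription starts, 250 bases before to 50 after in the RefSeq annotation of GRCm38.p6, are shown because the results turn on this pair of neighbouring peptide genes. Capitals mark the matches to motifs searched on both strands: GATAA (GATA factors), TNAAGTG (Nkx2-5), CATTCC (TEAD factors), TGANTCA (AP-1) and the CArG box of Srf. The CArG box was searched only in its exact form CCWWWWWWGG, where W is A or T.
Nppa, chr4:148000472-148000771, plus strand: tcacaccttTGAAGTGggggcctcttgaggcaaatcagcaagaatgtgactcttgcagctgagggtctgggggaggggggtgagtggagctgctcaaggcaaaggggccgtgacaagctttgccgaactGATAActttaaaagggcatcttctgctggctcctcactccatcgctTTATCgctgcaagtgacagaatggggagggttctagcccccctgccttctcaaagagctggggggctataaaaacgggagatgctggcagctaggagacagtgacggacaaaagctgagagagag
Nppb, chr4:147985650-147985949, plus strand: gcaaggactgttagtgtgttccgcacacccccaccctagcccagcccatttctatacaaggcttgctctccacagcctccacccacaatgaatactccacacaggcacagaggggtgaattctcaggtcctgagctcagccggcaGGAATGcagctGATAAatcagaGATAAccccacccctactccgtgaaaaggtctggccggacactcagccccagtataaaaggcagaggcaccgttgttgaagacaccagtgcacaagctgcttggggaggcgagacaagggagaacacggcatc
The Nppa window held TNAAGTG at -241 to -235 from the start, GATAA at -121 to -117, and GATAA on the minus strand at -75 to -71. The Nppb window held CATTCC on the minus strand at -105 to -100 and GATAA at -94 to -90 and -83 to -79, with the first bases of these 2 matches 11 bases apart. No matches overlapped each other. The windows of the other 5 genes held 0 matches to any of these motifs. Neither TGANTCA nor the exact CArG box was found in any of the 7. Forms with a mismatch were not searched, so an Srf site of another form is not excluded. Of 32851 promoter windows of this length, 25.4% held GATAA, 5.27% held it at least 2 times, 11.5% held TNAAGTG, 14.7% held CATTCC, 7.81% held TGANTCA and 1.63% held the CArG box. The RefSeq start of Nppb lies 112 bases inside the gene as GENCODE release M21 places it, and that of Nppa lies at the GENCODE start.

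Expression is in FPKM, which scales fragments by transcript length and by library size, so levels can be set beside each other between genes, while the files do not show how many reads each value rests on. The median FPKM of the libraries lay between 8.76 and 9.84. Their summed FPKM differed more, from 615567 to 2515650, and was highest in resection replicates 1 and 2 (2515650 and 2007000, against 769617 in replicate 3). Resection with vagotomy replicate 3 stood apart, with a mean correlation with the other libraries of 0.811 against 0.861 to 0.886 for the rest. The labelled ventricle was seen in its markers: 4 ventricular genes summed to 10287 to 13530 FPKM after resection with vagotomy, 4507 to 5175 FPKM after resection and 6674 to 8623 FPKM after sham surgery. The atrial marker Sln was listed at 0 in all 3 groups in the authors' deposited tables. The other 7 atrial markers summed to 56.8 to 101, 30.9 to 63.7 and 35.8 to 45.5 FPKM in the same order of groups. The ventricular markers differed in direction. Myl3 was higher after resection with vagotomy, at 5818 to 10656 FPKM, than after sham surgery, at 804 to 1680 FPKM. Myl2 was lower, at 2802 to 4396 FPKM against 5322 to 7766 FPKM, and Irx4 and Hey2 overlapped between all groups.

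Of the 6 tested genes, Nppb had the largest log2 change after resection relative to sham. It had 274, 141 and 75.7 FPKM in the resection libraries, against 29.2, 37.9 and 69.2 FPKM in the sham libraries. The lowest resection library lay just above the highest sham library, and resection replicate 1 was the highest of all 9. The means were 164 ± 101 FPKM after resection and 45.4 ± 21.04 FPKM after sham surgery (SD, n = 3 each), and the limma log2 change was 1.73 (SE 0.53, 95% interval 0.56 to 2.90). Adjusted over the 13249 genes tested by the Benjamini-Hochberg method, p was 0.38, which does not pass the threshold of 0.05. By size the change ranked 160th among all tested genes and by p 275th. Without resection replicate 1 it was 1.26. Within the resection group and within the sham group, Nppb was higher where the library's summed FPKM was higher, and within resection with vagotomy the order was the reverse. The change was 1.70 with upper-quartile scaling and 1.69 with quantile normalization of the libraries. The authors' deposited table, made with Cuffdiff, gives Nppb 166 FPKM after resection and 46.2 FPKM after sham surgery, with q = 0.00161 at the smallest p in that table, 5e-05.

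With vagotomy added to resection, Nppb had 107, 85.0 and 38.1 FPKM, a mean of 76.8 ± 35.3 FPKM (SD, n = 3). These libraries overlapped with those of resection alone and also with sham. The log2 change was -1.01 against resection (SE 0.53, 95% interval -2.18 to 0.16, limma adjusted p = 0.268) and 0.71 against sham (SE 0.53, 95% interval -0.45 to 1.88, limma adjusted p = 0.389). The change against sham ranged from 0.41 without resection with vagotomy replicate 1 to 1.15 without its replicate 3, and was 0.45 without sham replicate 1. The change against resection was -0.55 without resection replicate 1 and -0.58 without resection with vagotomy replicate 3. In the authors' deposited table the values were 76.5 FPKM after resection with vagotomy and 163 FPKM after resection, with q = 0.000995. Both comparisons of Nppb use the same resection libraries, so they are not independent of each other. In limma's F-test for any difference among the 3 groups, Nppb had an adjusted p of 0.133.

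The summed level of macrophage markers separated both resected groups from sham, which Nppb did only for resection alone. The 10 macrophage markers summed to 221 to 262 FPKM after resection with vagotomy, 170 to 304 FPKM after resection and 54.2 to 75.6 FPKM after sham surgery. Lyz2 was the highest of the 10 in every library, while C1qa, C1qb and Mrc1 overlapped between sham and both resected groups. Fcgr1 overlapped with sham after resection, and Cd68 after resection with vagotomy. Against sham, 3 markers (Lyz2, Itgam and Cd14) rose after resection and 6 rose after resection with vagotomy. In these comparisons 0.294% and 10.1% of all tested genes passed in either direction. Resection replicate 3 had the highest sum and the lowest Nppb of its group. The part of these cells in the Nppb values was not tested. In bulk tissue, fewer cells of a type and less RNA per cell cannot be told apart.

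Nppa, the neighbour of Nppb, overlapped between all groups. It had 69.8, 88.4 and 40.3 FPKM after resection with vagotomy, 46.2, 77.4 and 134 FPKM after resection, and 61.3, 72.1 and 168 FPKM after sham surgery. The highest values were in resection replicate 3 and sham replicate 3, and the spread within the resection and sham groups exceeded the differences between means. The means were 66.2 ± 24.2, 85.9 ± 44.5 and 100.5 ± 58.7 FPKM (SD, n = 3 each) in resection with vagotomy, resection and sham. The log2 change was -0.21 for resection against sham (95% interval -1.28 to 0.87), -0.31 for resection with vagotomy against resection (-1.39 to 0.77) and -0.52 for resection with vagotomy against sham (-1.60 to 0.56). No limma adjusted p was under 0.507. These intervals still hold differences of more than 1 on the log2 scale.

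The Nppa locus also carries Gm13054, an antisense gene on the minus strand at chr4:148001091-148004014. Of the 865 exonic bases of Nppa, 532 are also exonic in Gm13054. The sources used here do not give whether the fragments were counted by strand, so reads of the overlapping bases cannot be assigned with certainty and the Nppa values are uncertain. Gm13054 had 227, 270 and 117 FPKM after resection with vagotomy, 67.0, 135 and 170 FPKM after resection, and 79.3, 147 and 243 FPKM after sham surgery. In every library it was listed above Nppa.

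**Figure D1:**
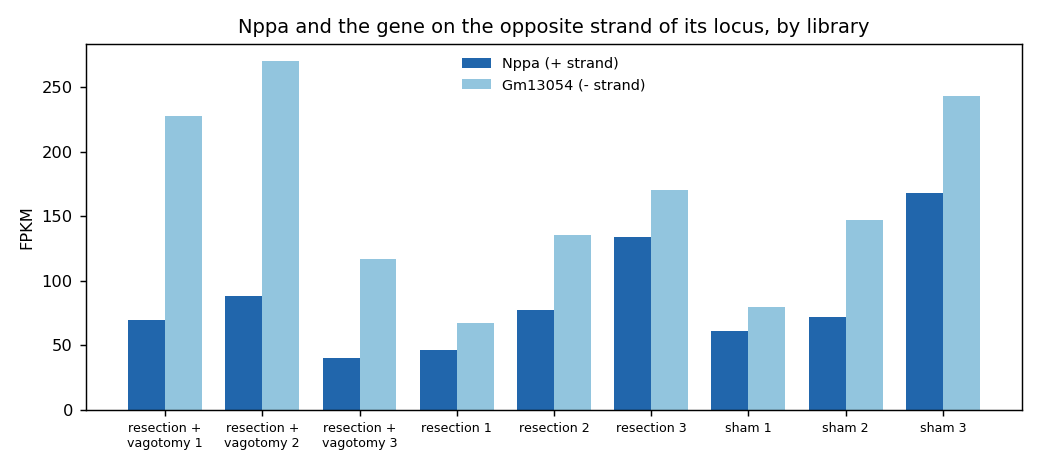
FPKM of Nppa (dark bars) and of Gm13054, the gene on the opposite strand of its locus (light bars), in each of the 9 libraries, 1 value per bar. Gm13054 is the taller bar in all 9, and its highest value, 270 FPKM, is in resection with vagotomy replicate 2, where Nppa is at 88.4 FPKM.

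Nppc encodes C-type natriuretic peptide, a local signal of endothelium and cartilage, and lies at chr1:86666291-86670571 on the minus strand. The authors' deposited tables list it at 0.114 FPKM after resection with vagotomy and at 0 after resection and after sham surgery, and mark it as not tested. It is outside the matrix, so no library values are given.

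Peptide amounts were not measured. The RNA balance was read as the ratio of Nppb to Nppa within each library, which a common scale factor cannot change. It was 1.54, 0.961 and 0.946 after resection with vagotomy, 5.92, 1.82 and 0.565 after resection, and 0.477, 0.525 and 0.412 after sham surgery. All 3 sham ratios lay below those of the 6 libraries of resected ventricles. On the log2 scale the ratio averaged 0.87 ± 1.70 after resection and -1.09 ± 0.18 after sham surgery (SD, n = 3 each), a difference of 1.96 (two-sided exact permutation p = 0.1, adjusted over 6 such tests 0.2). Without resection replicate 1 this difference was 1.11. After resection with vagotomy it averaged 0.16 ± 0.40, which was 1.25 above sham (exact permutation p = 0.1, adjusted 0.2) and -0.71 against resection (exact permutation p = 0.6, adjusted 0.6). With 3 libraries against 3, the smallest p such a test can give is 0.1. The difference from resection was 0.14 without resection replicate 1. The ratio carries the uncertainty of the Nppa values. Gm13054 was listed at 2.90 to 3.25 times Nppa after resection with vagotomy, 1.27 to 1.74 after resection and 1.29 to 2.04 after sham. The effect of this on the ratio of Nppb to Nppa was not tested.

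Corin, at chr5:72300025-72504473 on the minus strand, encodes the membrane serine protease of cardiomyocytes that cuts the ANP precursor. It had 36.9, 45.9 and 231 FPKM after resection with vagotomy, 26.4, 58.5 and 83.1 FPKM after resection, and 31.1, 25.0 and 34.8 FPKM after sham surgery. All libraries of resection with vagotomy lay above all sham libraries, although the lowest, 36.9 FPKM, was close to the highest sham value, 34.8 FPKM, while the resection libraries overlapped with both other groups. The means were 105 ± 110, 56.0 ± 28.4 and 30.3 ± 4.94 FPKM (SD, n = 3 each) in resection with vagotomy, resection and sham. The log2 change of resection with vagotomy against sham was 1.26 (SE 0.63, 95% interval -0.13 to 2.66, limma adjusted p = 0.205), and without resection with vagotomy replicate 3 it was 0.44. Against resection the change was 0.53 (SE 0.63, limma adjusted p = 0.648), which turned to -0.29 without that library. Resection against sham gave 0.73 (SE 0.63, limma adjusted p of 1), with 0.38 without resection replicate 3 and 1.19 without resection replicate 1. The authors' deposited tables give Corin q = 0.0647 after resection, set against sham, and q = 0.141 where vagotomy was added to resection.

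The library with 231 FPKM of Corin also had the highest summed level of cardiomyocyte markers, though not of each marker. The 10 cardiomyocyte markers that could be used summed to 20337 to 56979 FPKM after resection with vagotomy, 7013 to 12672 FPKM after resection and 9618 to 12163 FPKM after sham surgery. The highest sum, 56979 FPKM, was in resection with vagotomy replicate 3, and most of it came from the sarcomere genes Tnnt2 (18822 FPKM), Tnnc1 (12494 FPKM) and Myl3 (10656 FPKM). In the same library Ttn and Pln, at 80.9 and 1126 FPKM, were the lowest of their group, and Ryr2, at 183 FPKM, was below resection replicate 3, at 217 FPKM. Another marker, Myh6, was left out because it is listed at 0 in all 3 libraries of that group, which the tables show for a few very abundant genes. The part of cardiomyocyte RNA in the Corin values was not tested.

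**Figure D2:**
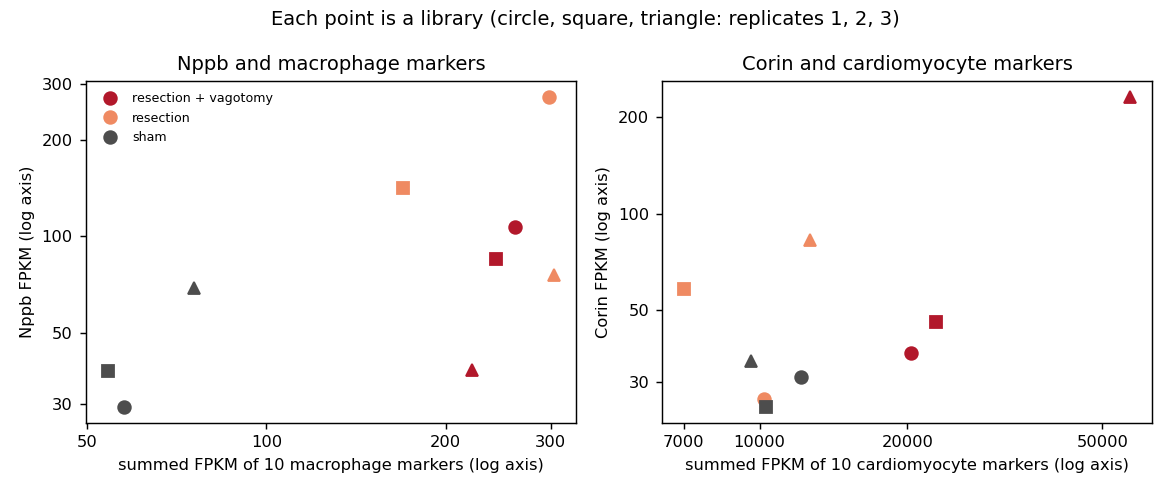
Nppb FPKM against the summed FPKM of 10 macrophage markers (left), and Corin FPKM against the summed FPKM of 10 cardiomyocyte markers (right), both on log axes, 1 point per library. The sham libraries sit at 54.2 to 75.6 FPKM of macrophage markers, below the other 6, and a single resection with vagotomy library lies at the upper right of the Corin panel, at 231 FPKM of Corin.

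Npr1, the guanylyl cyclase receptor of ANP and BNP (also called GC-A), lies at chr3:90450591-90465866 on the minus strand. It had 22.4, 18.6 and 28.7 FPKM after resection with vagotomy, 13.6, 22.6 and 12.5 FPKM after resection, and 19.7, 14.0 and 17.4 FPKM after sham surgery. The groups overlapped, and their means were 23.2 ± 5.07, 16.2 ± 5.51 and 17.0 ± 2.84 FPKM (SD, n = 3 each) in resection with vagotomy, resection and sham. The log2 change was -0.10 for resection against sham (95% interval -0.73 to 0.53), 0.52 for resection with vagotomy against resection (-0.11 to 1.15) and 0.42 for resection with vagotomy against sham (-0.21 to 1.05).

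Npr2 encodes the guanylyl cyclase receptor of C-type natriuretic peptide and lies at chr4:43631935-43651244 on the plus strand. It had 14.7, 21.1 and 20.3 FPKM after resection with vagotomy, 20.5, 24.4 and 12.4 FPKM after resection, and 19.1, 14.2 and 10.8 FPKM after sham surgery. The groups overlapped here too. The log2 change was 0.34 for resection against sham (95% interval -0.35 to 1.02), 0.01 for resection with vagotomy against resection (-0.68 to 0.69) and 0.34 for resection with vagotomy against sham (-0.34 to 1.03). The receptor was thus measured in every library while its peptide, Nppc, was listed at or near 0.

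Npr3, at chr15:11839896-11907287 on the minus strand, encodes the clearance receptor, which takes up natriuretic peptides and has no cyclase domain. It had 4.98, 3.14 and 6.35 FPKM after resection with vagotomy, 3.93, 11.7 and 6.28 FPKM after resection, and 4.31, 7.03 and 8.93 FPKM after sham surgery. The groups overlapped, with the highest library in the resection group. The log2 change was 0.04 for resection against sham (95% interval -0.82 to 0.89), -0.44 for resection with vagotomy against resection (-1.30 to 0.41) and -0.41 for resection with vagotomy against sham (-1.26 to 0.45). Annotated genes that share a deposited locus with Npr1, Npr2 or Corin were low beside them, at 2.47 FPKM or less in the authors' deposited tables. Gm5144, which overlaps Npr3 in GENCODE, is not among these genes, and its level is not given here. In the 9 receptor comparisons the smallest limma adjusted p was 0.292. The authors' deposited table gives Npr3 q = 0.0847 for resection with vagotomy against resection.

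**Figure D3:**
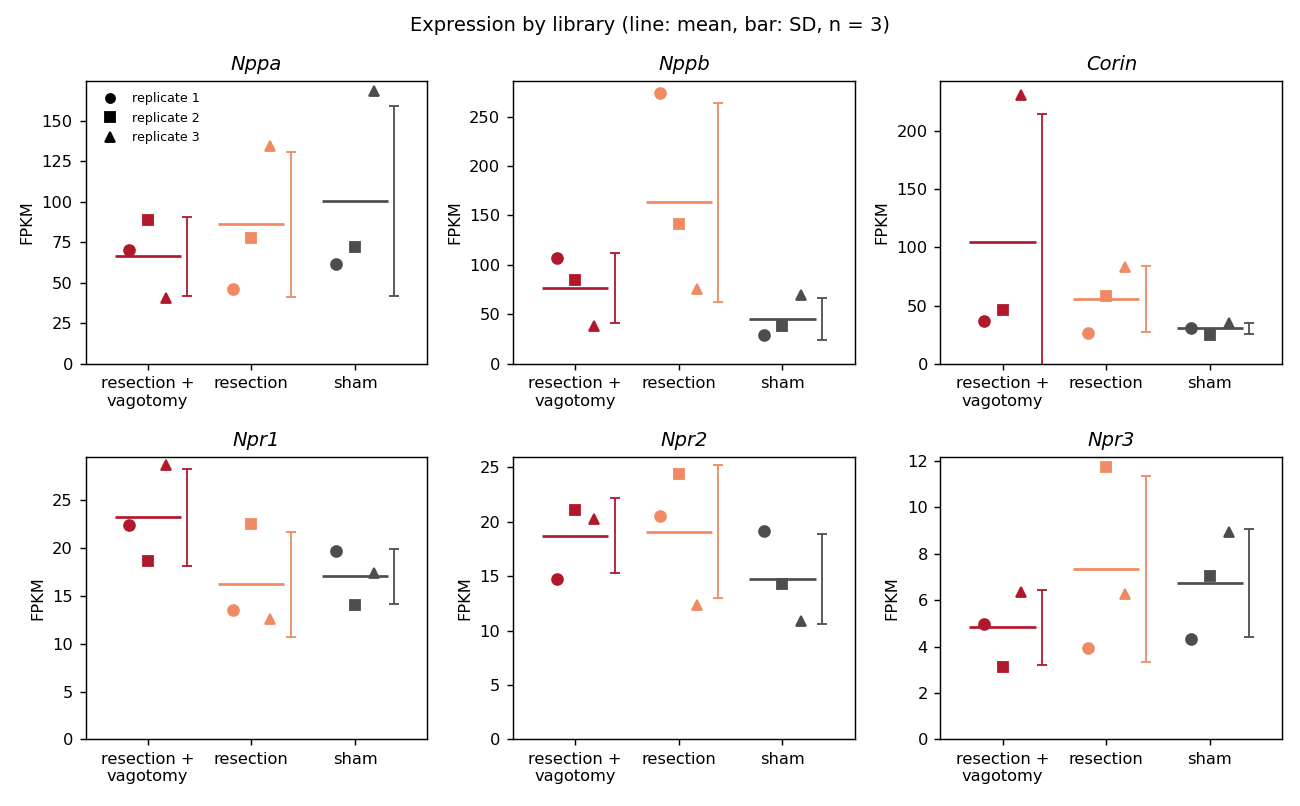
FPKM of the 6 genes of the matrix in each library, with symbols for replicates, lines for group means and bars for the SD (n = 3). Nppb is the panel in which all resection libraries, at 75.7 FPKM and above, lie over all sham libraries, and the Corin bar of resection with vagotomy, which runs below 0 and is cut at the axis, comes from 1 library at 231 FPKM.

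The ratio of Npr3 to Npr1 sets clearance receptor RNA against signalling receptor RNA. It was 0.222, 0.169 and 0.222 after resection with vagotomy, 0.290, 0.521 and 0.501 after resection, and 0.219, 0.501 and 0.513 after sham surgery. All libraries of resection with vagotomy lay below all resection libraries, and 1 sham library lay among them. The log2 ratio averaged -2.30 ± 0.23 after resection with vagotomy and -1.24 ± 0.47 after resection (SD, n = 3 each), a difference of -1.06 (two-sided exact permutation p = 0.1, the smallest possible, adjusted 0.2). Against sham, at -1.38 ± 0.70, resection with vagotomy differed by -0.92 (exact permutation p = 0.3, adjusted 0.45) and resection by 0.14 (exact permutation p = 0.6, adjusted 0.6). The sign of this last difference turned without resection replicate 2 or without sham replicate 1.

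**Figure D4:**
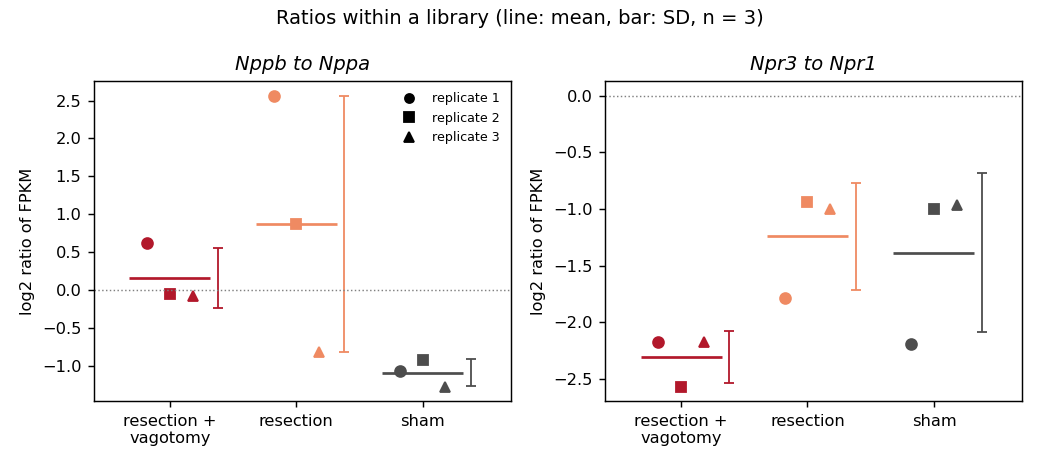
Log2 ratio of Nppb to Nppa (left) and of Npr3 to Npr1 (right) within each library, with symbols for replicates, lines for means and bars for the SD (n = 3). On the left the 3 sham libraries form the lowest group, with a mean of -1.09, and on the right the 3 libraries of resection with vagotomy lie lowest as a group, with a mean of -2.30.

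Counted over the 6 genes tested, 0 passed the adjusted threshold in limma for resection against sham, where 0.294% of all tested genes passed. The count was 0 of 6 for resection with vagotomy against resection, where 3.52% of all genes passed, and 0 of 6 against sham, where 10.1% did. With the replicate number as a block, 1277 genes passed in resection with vagotomy against resection, against 466 without it, and still 0 of the 6. At an unadjusted p under 0.05, 1 of 6, Nppb, passed for resection against sham, against a background of 5.89%. In both other comparisons 0 of 6 did, where 24.2% and 30.1% of all genes did. The F-test for any difference among the groups called 0 of 6 after adjustment, with a background of 5.89%, and 1 of 6, Nppb, before it, with a background of 26%. By the q-values of the authors' deposited tables, 1 of 6, Nppb, was called in each of the 2 comparisons, with backgrounds of 6.12% in the comparison with sham and 17.1% in that of resection with vagotomy against resection. Libraries did not overlap for 1 of 6 genes, Nppb, in resection against sham, where 6.36% of all genes were higher without overlap and 4.45% lower. In resection with vagotomy against resection the count was 0 of 6, with 14% of all genes higher without overlap and 12.2% lower. They did not overlap for 1 of 6, Corin, in resection with vagotomy against sham, where 19.7% were higher without overlap and 17% lower.

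**Figure D5:**
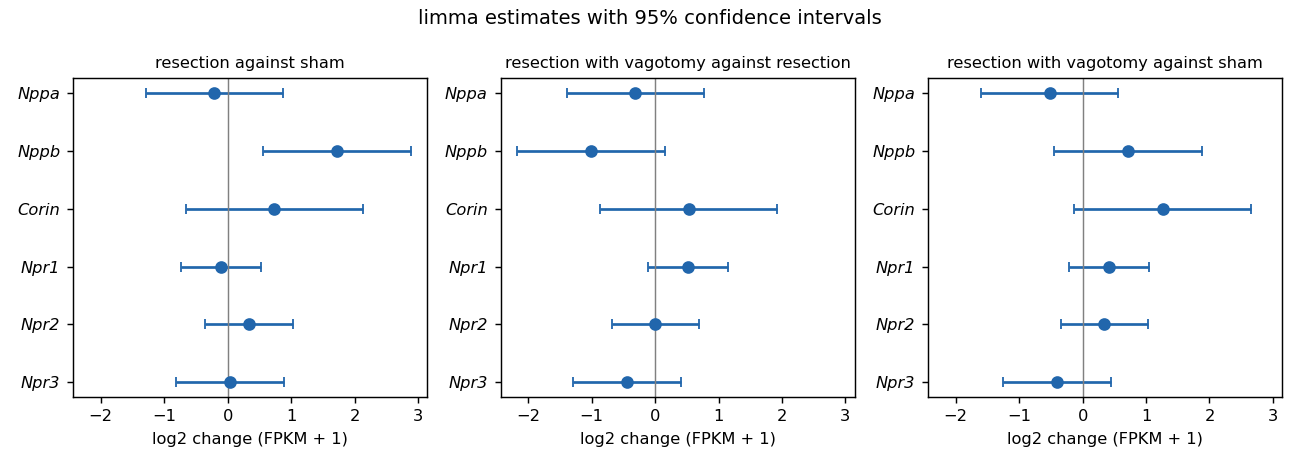
Log2 change of FPKM + 1 estimated by limma (points) with 95% confidence intervals (bars) for 6 genes in 3 comparisons, where positive values are higher in the group named first. The interval of Nppb in resection against sham, 0.56 to 2.90, is the one of 18 that does not include 0, and its adjusted p is 0.38.

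By mean level the 6 genes ran in an order that differed in part between groups. After resection with vagotomy it was Corin, Nppb, Nppa, Npr1, Npr2 and Npr3. After resection it was Nppb, Nppa, Corin, Npr2, Npr1 and Npr3. After sham surgery it was Nppa, Nppb, Corin, Npr1, Npr2 and Npr3. In every group the libraries of Nppa, Nppb and Corin overlapped with their neighbours in the order, as did those of Npr1 and Npr2. The lowest of the first 3 genes did not overlap with the cyclase receptors, and Npr3 lay below those without overlap. Nppa was above Nppb in 6 of 9 libraries. The place of Nppa in these orders and ranks is uncertain, because reads of the bases shared with Gm13054 cannot be assigned. Over all 9 libraries, Nppb ranked 737th of 13249 genes by mean level, Nppa 849th, Corin 1141st, Npr1 4014th, Npr2 4281st and Npr3 8390th.

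The genes also differed in how much they varied. From the lowest to the highest of the 9 libraries, Nppb spanned a factor of 9.36, Corin 9.24, Nppa 4.17, Npr3 3.74, Npr1 2.28 and Npr2 2.25. The cyclase receptors, with an SD of 0.37 and 0.38 on the log2 scale, were the steadiest, and Nppb and Corin, at 1.01 and 1.00, the least steady.

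For genes with an SD of at least 0.5, the 3 named genes with the most similar centred profile over the 9 libraries were listed, with the root mean square log2 difference as the measure. For Nppb these were Cd52 (0.313), Ch25h (0.404) and Ms4a6b (0.462), all under 10 FPKM in every library. For Nppa they were Ptp4a2 (0.253), Fnbp4 (0.253) and Bves (0.287). For Npr3 they were Tmem168 (0.129), Rrm2b (0.141) and Pdgfd (0.151). For Corin they were Trim30b (0.187), Slc10a6 (0.224) and Fam107b (0.339), which like Corin were highest in resection with vagotomy replicate 3. All points share libraries and depth, and no test was made of these likenesses.

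Other genes of the pathway were counted from 4 lists. None of 8 genes that process or degrade the peptides passed in any comparison, and the median log2 changes were -0.48 for resection against sham, 0.31 for resection with vagotomy against resection and -0.10 for resection with vagotomy against sham. The medians of all tested genes were -0.01, 0.02 and 0.03, and 0.294%, 3.52% and 10.1% of them passed in these comparisons. A count of 0 of 8 is near that background. Dpp4, a dipeptidyl peptidase that trims BNP in humans, averaged 1.09 ± 0.32 FPKM after resection with vagotomy, 2.20 ± 1.74 FPKM after resection and 4.04 ± 1.01 FPKM after sham surgery (SD, n = 3 each), with a limma adjusted p of 0.0532 for resection with vagotomy against sham. Mme, neprilysin, which degrades natriuretic peptides, averaged 0.980 ± 0.466, 1.32 ± 0.62 and 2.31 ± 0.75 FPKM in the same order. Galnt2, which attaches sugars to proteins, averaged 7.47 ± 6.96, 1.34 ± 0.76 and 3.52 ± 4.30 FPKM, with a spread as large as the differences.

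Of 14 tested genes that form, break down or answer to cyclic GMP, 0 passed in any comparison, with medians of 0.02, -0.09 and -0.02 in the same order of comparisons. Of all tested genes, 0.294%, 3.52% and 10.1% passed, so a count of 0 of 14 is near the background. Pde5a, the phosphodiesterase that breaks down cyclic GMP, averaged 1.63 ± 0.49 FPKM after resection with vagotomy, 3.29 ± 1.00 FPKM after resection and 4.15 ± 0.90 FPKM after sham surgery (SD, n = 3 each). Its log2 change against sham was -0.97 after resection with vagotomy (limma adjusted p = 0.0537). Pde3a, a phosphodiesterase inhibited by cyclic GMP, averaged 10.5 ± 2.29, 11.5 ± 4.92 and 18.1 ± 1.46 FPKM. Gucy1b1, a subunit of the soluble guanylyl cyclase, averaged 9.63 ± 1.52, 17.7 ± 7.07 and 16.3 ± 2.55 FPKM.

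Among 18 transcription regulators reported at the Nppa or Nppb locus, 0 passed for resection against sham, 1 rose for resection with vagotomy against resection, and 1 rose and 1 fell for resection with vagotomy against sham. Of all tested genes, 0.294%, 3.52% and 10.1% passed in these comparisons, so the counts of this list were near the background. The median changes were -0.07, 0.17 and 0.01. Myocd, the coactivator of Srf in cardiac and smooth muscle, had 104, 133 and 162 FPKM after resection with vagotomy, 16.3, 27.2 and 35.6 FPKM after resection, and 26.6, 29.1 and 33.2 FPKM after sham surgery. All 3 libraries of resection with vagotomy lay far above the other 6. Its log2 change was 2.33 against resection (SE 0.31, limma adjusted p = 0.00768) and 2.11 against sham (SE 0.31, limma adjusted p = 0.00689). The summed cardiomyocyte markers were high in the same 3 libraries (20337 to 56979 FPKM, against 7013 to 12672 FPKM in the other 6). Of the 10 markers, 3 passed in each comparison, Tnnc1, Actn2 and Myl3, while Ryr2, Ttn and Pln had changes of 0.01, 0.29 and 0.07 on the log2 scale against resection. Their part in the Myocd values was not tested. Srf, its partner, averaged 41.4 ± 24.4, 16.2 ± 6.27 and 12.7 ± 5.56 FPKM (SD, n = 3 each) in resection with vagotomy, resection and sham, with a limma adjusted p of 0.0642 for the first against the last.

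Yy1, a transcription factor that can activate or repress, had 12.4, 15.8 and 13.1 FPKM after resection with vagotomy, 27.5, 41.9 and 19.1 FPKM after resection, and 27.3, 28.4 and 34.6 FPKM after sham surgery. It fell by 1.08 on the log2 scale in resection with vagotomy against sham (SE 0.29, limma adjusted p = 0.0450). That call was lost when any 1 library of the vagotomy or sham group was left out, with adjusted p up to 0.160. Against resection its change was -0.99 (limma adjusted p = 0.0835).

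Of 12 genes of wall stress and the fetal cardiac programme, 0 passed for resection against sham or for resection with vagotomy against resection. For resection with vagotomy against sham, 1 rose. Of all tested genes, 0.294%, 3.52% and 10.1% passed in these comparisons, so the counts of this list were near the background. The medians of the 12 genes were 0.07, 0.16 and 0.67. The riser was Rcan1, a calcineurin regulator, which had 37.6, 44.5 and 41.4 FPKM after resection with vagotomy, 48.2, 31.6 and 39.6 FPKM after resection, and 20.7, 21.2 and 20.9 FPKM after sham surgery. All 6 libraries of resected ventricles lay above the 3 sham libraries. Its log2 change was 0.94 in resection with vagotomy against sham (SE 0.23, limma adjusted p = 0.0341) and 0.87 in resection against sham (SE 0.23, limma adjusted p = 0.272). The call was lost when any 1 library of the vagotomy or sham group was left out, with adjusted p up to 0.135. Tpm2, a tropomyosin, averaged 67.4 ± 51.7, 17.1 ± 11.9 and 18.3 ± 2.22 FPKM (SD, n = 3 each) in resection with vagotomy, resection and sham. Ankrd1 had 277, 401 and 267 FPKM after resection with vagotomy and 401, 361 and 221 FPKM after resection. After sham surgery it had 103, 224 and 204 FPKM. The resection libraries overlapped with sham. Against sham its log2 change was 0.92 after resection (limma adjusted p = 0.734) and 0.88 with vagotomy added (limma adjusted p = 0.147). Against resection it was -0.04 with vagotomy added (limma adjusted p = 0.97). Actc1, cardiac actin, was left out of the 12 because it is listed at 0 in all 3 libraries of resection with vagotomy and at 3600 to 7955 FPKM in the other 6.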

How the data were processed

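RNA-seq values of 9 libraries were used. Per the submitters' processing notes, TopHat2 2.0.9, Cufflinks 2.1.1, Cuffdiff 2.1.1 and the GRCm38 genome were used. The deposited matrix holds FPKM with 1 added, which was subtracted. The authors' deposited Cuffdiff tables give group FPKM, a test score, p-values and q-values. No read counts were given, so depth per library is unknown and no count test or counting interval was possible. The 13249 genes whose mean over the 9 libraries was 1 FPKM or more were fitted as log2(FPKM + 1), with 1 mean per group, by limma 3.58.1 in R 4.3.3, with a mean-variance trend. Tests were two-sided and adjusted by the Benjamini-Hochberg method over all tested genes, with a threshold of 0.05. A fold change on this scale understates the change of low genes. Ratios were compared by exact permutation tests. The procedure was tested on simulated data, in which the seeded changes were larger than any change of the tested natriuretic genes. That test does not give the power to detect changes of their size. Gene positions came from GENCODE release M21 (GRCm38) and promoter windows from RefSeq (GRCm38.p6), in which all 7 genes matched.

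The genes and lists were chosen with earlier results of these data known. Named beside the 7 genes are, for each list, the genes past the threshold, filled up to 3 by the smallest F-test p, and the 3 most similar named genes for each of the 7 genes with an SD of at least 0.5. A total of 15 genes carried failed estimates (listed at 0 throughout 1 group while abundant in the others, or marked as failed), none among the 7, and were left out of list counts and marker sums. Same-numbered libraries deviated weakly together in resection with vagotomy and resection (r of 0.117 to 0.199 in 3 pairs). Over all groups, pairs with different numbers had r of -0.448 to 0.335, so pairing is not established. The labels give no shared source and, for replicate 3, the libraries' own names carry different numbers. The main fits and the permutation tests were not paired. Alternatives were other pseudocounts, filters, scalings and moderation, a replicate block, fits of 6 libraries and leaving out each library.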

Additional observations from a re-analysis of the deposited data

How the results depend on the processing

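Across 19 alternatives for each of 18 changes of the 6 tested genes, 342 values in all, 0 passed the threshold and 15 reversed, in 6 of the 18 changes. Only the authors' deposited q-values gave another count, 1 (Nppb) in place of 0 in each of the 2 comparisons they hold. The change of Npr2 in resection with vagotomy against resection reversed to -0.00052 with a pseudocount of 5 and to -0.0268 with upper-quartile scaling and to -0.0343 with quantile normalization. The remaining reversals came from leaving out 1 library. The ranges were then -0.59 to 0.23 for Nppa, -0.35 to 0.0505 for Npr1 and -0.32 to 0.36 for Npr3 in resection against sham, and -0.69 to 0.0722 for Nppa, -0.26 to 0.20 for Npr2 and -0.29 to 1.02 for Corin in resection with vagotomy against resection. For Nppb the range was 1.26 to 2.18 in resection against sham, with adjusted p of 0.262 to 1. The ratio differences ranged from -1.56 to 0.14 for Nppb to Nppa in resection with vagotomy against resection and from -0.26 to 0.42 for Npr3 to Npr1 in resection against sham. With the replicate block, the adjusted p of Nppb in resection against sham was 0.345 and that of Corin in resection with vagotomy against sham 0.0855, and no call of the 6 genes changed. Numbers shared with sham had r of -0.02 to 0.50 and those not shared -0.45 to 0.34, so pairing with sham is not shown by the data.

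The list counts, added after the data were seen, moved in resection with vagotomy against sham. With a pseudocount of 5 the regulators passing numbered 1 (Myocd), with Yy1 at -0.90 (adjusted p = 0.0508). The cyclic GMP genes passing numbered 1 (Pde5a) with upper-quartile scaling, quantile normalization, robust moderation and the replicate block. The peptide processing genes passing numbered 1 with robust moderation and with only the 6 libraries compared (Dpp4), and with the replicate block (Furin). The block gave 4 regulators (Srf, Tbx3, Myocd and Yy1). Leaving out 1 library gave 1 to 2 regulators, 0 to 1 peptide processing genes, 0 to 1 cyclic GMP genes and 0 to 2 wall stress genes in that comparison, and 0 to 1 wall stress genes in resection with vagotomy against resection. Yy1 then ranged from -1.17 to -0.97 in resection with vagotomy against sham and from -0.37 to 0.18 in resection against sham, Rcan1 from 0.88 to 1.00 in resection with vagotomy against sham and from -0.0857 to 0.21 in resection with vagotomy against resection, Myocd from -0.47 to 0.0734 in resection against sham, and Gm13054 from -0.70 to 0.10 in resection against sham. Myocd kept its call against resection and against sham under all 19 alternatives. Over all genes, leaving out 1 library gave 11 to 66 calls in resection against sham (39 with all), 43 to 596 in resection with vagotomy against resection (466) and 83 to 1701 in resection with vagotomy against sham (1334), and the block gave 55, 1277 and 2413. A pseudocount of 0.1 gave 66 and one of 5 gave 23 in resection against sham, robust moderation gave 74 there, and fits of 6 libraries gave 23, 53 and 1586 in the 3 comparisons. The cause of these changes was not tested. Depth is unknown and limits what can be said of low genes such as Nppc and Npr3.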

Other observations

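The antisense gene at the Nppa locus was looked at after its values were seen. The ratio of Gm13054 to Nppa within a library was 3.25, 3.05 and 2.90 after resection with vagotomy, 1.45, 1.74 and 1.27 after resection, and 1.29, 2.04 and 1.45 after sham surgery. All 3 libraries of resection with vagotomy lay above the other 6, which overlapped with each other, and no test was made of this ratio. Gm13054 itself had a log2 change of 0.73 in resection with vagotomy against resection (limma adjusted p = 0.392), 0.44 in resection with vagotomy against sham (limma adjusted p = 0.584) and -0.29 in resection against sham (limma adjusted p of 1). The 2 genes share 532 exonic bases, and the use of strand in counting is not given in the sources used here. Reads of the shared bases therefore cannot be assigned to either gene with certainty, and the ratio is uncertain.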
